A study of Bos taurus with 12 samples.

Results

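The 29 genes described here encode homeobox and T-box transcription factors that mark position in the embryo. They were chosen by name alone: every probe set of the bovine array with exactly 1 gene symbol from the HOX, IRX, DLX, EMX, PITX, TBX, MEIS, PBX, MSX, LHX or sine oculis (here SIX3, SIX5 and SIX6) families. This gave 38 probe sets for 29 of the 9155 genes named by a single symbol on the array. The rule that picked them uses names and no measured value, although results from these arrays were known when it was written. Of the 38 probe sets, 27 from 23 genes were bright enough to be tested, and 11 were dim in this tissue.

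Steers of the breeds Japanese Black (JB) and Holstein (HS) had been kept on an energy-rich diet, and total RNA from their intramuscular fat (IMF) and subcutaneous fat (SCF) was hybridised to Affymetrix arrays. The 4 groups were JB IMF, HS IMF, JB SCF and HS SCF, with 3 samples each; IMF samples carry the numbers 1 to 3 and SCF samples 4 to 6. All groups received the diet, so its own effect was not compared. The labels give no age, and they do not say whether the samples of a group, or the depots, came from separate animals. A p-value therefore weighs a difference against the spread among these arrays alone, part of which may be technical.

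HOX genes lie in clusters, and the order of the genes along a cluster mirrors the order in which they are used along the body axis. MEIS and PBX proteins, homeodomain factors of the TALE class, bind DNA together with HOX proteins, whereas the DLX, MSX, IRX, PITX, TBX and sine oculis families pattern limbs, head and sense organs. Adult fat depots keep part of such a developmental code, so that fat from different body sites can be told apart by it.

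Values are array signals as deposited, on a linear scale, and each difference is a difference of group means of log2(signal + 16) after quantile normalization, given with its standard error (SE) from limma. A probe set was called when its Benjamini-Hochberg adjusted p over the 16811 probe sets tested was below 0.05. A dim probe set lay among the 30% with the lowest mean over the 12 samples, below a mean signal of about 33.4. The median signal of the arrays lay between 77.6 and 88.3, apart from HS IMF 3 at 58.84. Samples of one group correlated less in HS, with a mean r of 0.805 to 0.915, than in JB, with 0.944 to 0.962. HS SCF 5 stood out by its GAPDH signal ratio of 3' over 5' probe sets, a check on RNA integrity. That ratio reached 4.06 there, while every other array lay between 1.19 and 2.4. What part RNA integrity had in the values of HS SCF 5 was not tested. Adipocyte markers were present in every sample, and their summed signal was 23828 to 60223 in IMF against 55858 to 79365 in SCF. All 10 adipocyte markers tested were lower in IMF by value, and 1 was called. Skeletal muscle fibre markers summed to 58992 to 130988 in IMF and to 4383 to 20508 in SCF, so the groups did not overlap in muscle RNA. In bulk tissue of this kind, fewer cells of a type and less RNA per cell cannot be told apart.

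The question of the depot comparison was which of these genes differed between fat inside the muscle and fat under the skin, over both breeds. Of the 27 tested member probe sets, 5 were called (18.5%), against 11.0% of all probe sets tested. All 5 were lower in IMF, as were 1064 of the 1848 calls over all probe sets (6.33% of those tested). The 5 called members belonged to 4 genes: MSX1 with both of its probe sets, DLX5, IRX3 and PBX3. None of the 11 tested HOX probe sets was called, with limma adjusted p between 0.0717 and 0.979. In that fit 3 of the 11 had an unadjusted p below 0.05, against 27.2% of all probe sets tested. The median difference of the 27 was -0.04, beside -0.06 over all probe sets tested. Among all calls the share higher in IMF was 42.4% after quantile normalization, 30.5% on values as deposited and 38.7% after median centring, whereas 5 member probe sets of the same 4 genes were called, all lower, in each of these. The member count fell to 0 without JB IMF 1 and to 2 without JB IMF 3, JB SCF 4 or HS SCF 4. It fell to 1 without JB SCF 5, JB SCF 6 or HS SCF 6. Over all probe sets tested the 1848 calls fell to 1000 without JB IMF 1. They ranged from 942 without JB IMF 3 to 2346 without HS IMF 1.

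**Figure D1:**
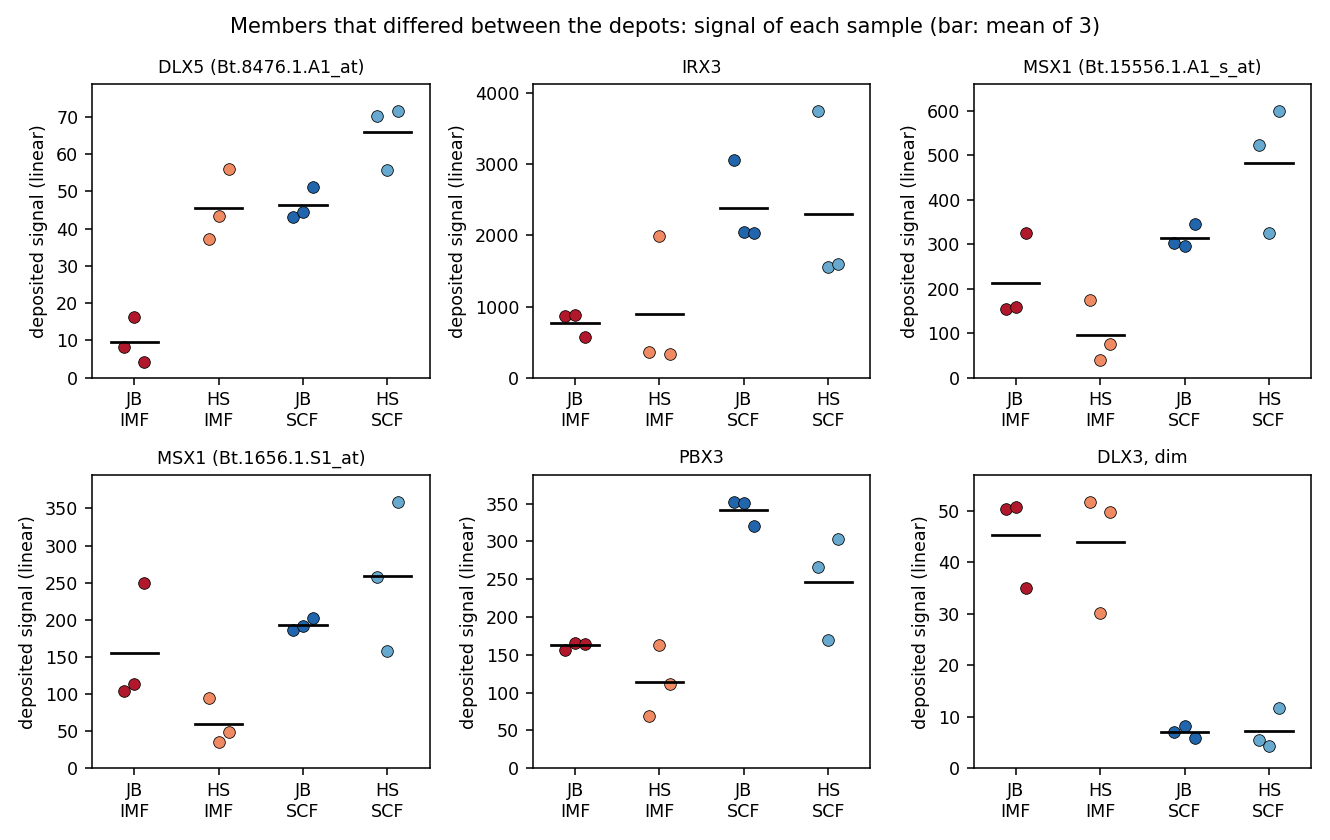
Deposited signal (linear scale) of 6 member probe sets in the 12 samples, in panels for DLX5, IRX3, both probe sets of MSX1, PBX3 and the dim probe set of DLX3. Points are samples and bars are means of 3; MSX1 and PBX3 lie lower in IMF in most samples, and DLX3 lies between 30.1 and 51.7 in IMF against 4.31 to 11.8 in SCF.

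MSX1, a homeobox repressor that holds limb and craniofacial mesenchyme in an undifferentiated state, had 2 tested probe sets that ran together over the 12 samples (Pearson r of 0.975 as a description). The brighter of them read 153, 159 and 326 in JB IMF and 174, 39.6 and 76.8 in HS IMF. In SCF it read 302, 296 and 346 in JB and 523, 325 and 599 in HS. All 6 IMF samples lay below the median of SCF, and 5 of them below every SCF sample, the exception being JB IMF 3. The difference, IMF minus SCF, was -1.31 ± 0.30 (SE, 6 samples against 6), or 2.48-fold, with a limma adjusted p of 0.0174. This call was lost without JB IMF 1 (adjusted p 0.0537) and without HS SCF 6 (0.0509).

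The dimmer MSX1 probe set read 104, 113 and 249 in JB IMF and 95.2, 35.2 and 49.3 in HS IMF, against 186, 192 and 203 in JB SCF and 258, 158 and 359 in HS SCF. Again JB IMF 3 was the IMF sample that lay among the SCF samples. The difference was -1.02 ± 0.27 with a limma adjusted p of 0.0316. Leaving out any of 8 samples ended the call, with adjusted p from 0.0505 to 0.0887: JB IMF 1 and 2, HS IMF 2, each JB SCF sample, HS SCF 4 and HS SCF 6.

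Within breeds, MSX1 was called in HS and not in JB. In HS the 3 IMF samples lay below the 3 SCF samples for both probe sets, with differences of -2.08 ± 0.43 (limma adjusted p 0.0234) and -1.73 ± 0.38 (0.032). In JB the differences were -0.55 ± 0.43 (limma adjusted p 0.696) and -0.32 ± 0.38 (0.854), and JB IMF 3 stood within the JB SCF range for the brighter probe set and above it for the dimmer. The test of the difference between the breeds, the interaction, gave 1.53 ± 0.61 and 1.41 ± 0.54, both with a limma adjusted p of 0.99, so a difference between breeds in the MSX1 depot effect was not established. The HS call of the brighter probe set was lost without HS IMF 3 (adjusted p 0.0528), HS SCF 4 (0.0614) or HS SCF 6 (0.115). That of the dimmer was lost without HS IMF 2 or 3, any 1 JB SCF sample, HS SCF 4 or HS SCF 6, with adjusted p from 0.0504 to 0.145.

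DLX5, a distal-less factor of bone and appendage development, was read by its 1 tested probe set at 8.35, 16.3 and 4.15 in JB IMF, the lowest values of the probe set. In HS IMF it read 37.3, 43.3 and 56, in JB SCF 43.2, 44.6 and 51.1, and in HS SCF 70.2, 55.9 and 71.6. JB IMF thus stood apart from the other 3 groups, while HS IMF overlapped with SCF. Over both breeds the difference was -0.78 ± 0.18 (limma adjusted p 0.02). It was -1.29 ± 0.26 in JB (limma adjusted p 0.019), where IMF and SCF did not overlap, and -0.27 ± 0.26 in HS (0.564). The JB IMF signals all lay below the limit for dim probe sets, and the probe set entered the test through the other groups, so the size of its differences depends on the pseudocount. With a pseudocount of 1 they were -1.33 over both breeds and -2.30 in JB. The interaction of -1.02 ± 0.37 was not called (limma adjusted p 0.99). The call over both breeds was lost without JB IMF 1 or 3, JB SCF 5 or 6, or HS SCF 6 (adjusted p 0.0518 to 0.0646), and the JB call without JB IMF 1 or 3 or any 1 JB SCF sample (0.0534 to 0.12). The other DLX5 probe set was dim, at 0.07 to 34.5, and differed by 0.24 ± 0.28 over both breeds.

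IRX3, an Iroquois repressor that patterns the neural tube and the limb bud, was read by 1 probe set. IMF samples read 873, 884 and 566 in JB and 366, 1988 and 327 in HS. SCF samples read 3059, 2043 and 2039 in JB and 3745, 1549 and 1591 in HS. HS IMF 2 was the IMF sample that reached the SCF range, and the other 5 lay below every SCF sample. The difference was -1.52 ± 0.40, or 2.87-fold lower in IMF, with a limma adjusted p of 0.0318. It was close in size in the breeds, at -1.59 ± 0.57 in JB and -1.45 ± 0.57 in HS, but neither passed on its own (limma adjusted p 0.216 and 0.171). The HS difference hung on single samples: it was -2.17 without HS IMF 2 (limma adjusted p 0.0199), -0.92 without HS IMF 1 (0.29) and -0.98 without HS SCF 4 (0.325). The call over both breeds was lost without JB IMF 1 or 3, any 1 JB SCF sample, HS IMF 3 or HS SCF 4, with adjusted p from 0.0531 to 0.0895.

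PBX3, a TALE partner of HOX proteins, read 157, 166 and 165 in JB IMF against 352, 351 and 321 in JB SCF. In HS it read 69.3, 163 and 112 in IMF and 266, 169.6 and 303 in SCF. As deposited, every IMF sample lay below every SCF sample, although HS SCF 5 at 169.6 was close to the highest IMF samples, and after quantile normalization the sides overlapped. The difference was -0.83 ± 0.24 with a limma adjusted p of 0.0454, near the threshold. It was -0.93 ± 0.34 in JB (limma adjusted p 0.228) and -0.73 ± 0.34 in HS (0.239). The call was lost without any 1 of the 6 JB samples, HS SCF 4 or HS SCF 6 (adjusted p 0.063 to 0.111), and with a pseudocount of 1 in place of 16 (0.0554).

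DLX3, a distal-less factor needed for placenta, hair and teeth, was left out of the test as dim and is described after its values were seen. Its signal was 50.3, 50.7 and 35.1 in JB IMF and 51.7, 30.1 and 49.7 in HS IMF. In SCF it was 6.96, 8.16 and 5.92 in JB and 5.45, 4.31 and 11.8 in HS. All 6 IMF samples lay above all 6 SCF samples, which none of the 27 tested members showed in either direction after quantile normalization, against 6.24% of all probe sets tested. DLX3 is not among the probe sets behind that share, and no such share is given for dim probe sets. In the fit without the filter on dim probe sets, where 8.17% of 24016 were called, DLX3 was higher in IMF by 1.44 ± 0.18, or 2.72-fold, with a limma adjusted p of 0.000348. Its SCF signals were small against the pseudocount of 16, and with a pseudocount of 1 the difference was 2.63. The difference was 1.42 ± 0.25 in JB (limma adjusted p 0.00963) and 1.47 ± 0.25 in HS (0.00914).

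The DLX3 call over both breeds held without each of the 12 samples in turn, with adjusted p from 9.45e-05 to 0.00205. The JB call was lost without JB IMF 1 (adjusted p 0.0633) or JB SCF 6 (0.0587). DLX4, the next gene to DLX3 in the RefSeq annotation, went the other way in value: it read 58.4, 119 and 15.4 in JB IMF and 10.5, 19.2 and 8.62 in HS IMF, against 42.4 to 90.1 in SCF. Its difference of -0.72 ± 0.29 was not called (limma adjusted p 0.138), and it ranged from -0.96 without JB IMF 2, where it was called (0.026), to -0.45 without JB IMF 3 (0.275). In HS all 3 IMF samples lay below all 3 SCF samples, with a difference of -1.10 ± 0.41 (limma adjusted p 0.156). The HS IMF signals of DLX4 lay below the dim limit, so this size depends on the pseudocount. Over the other settings tried it reached -1.78.

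**Figure D2:**
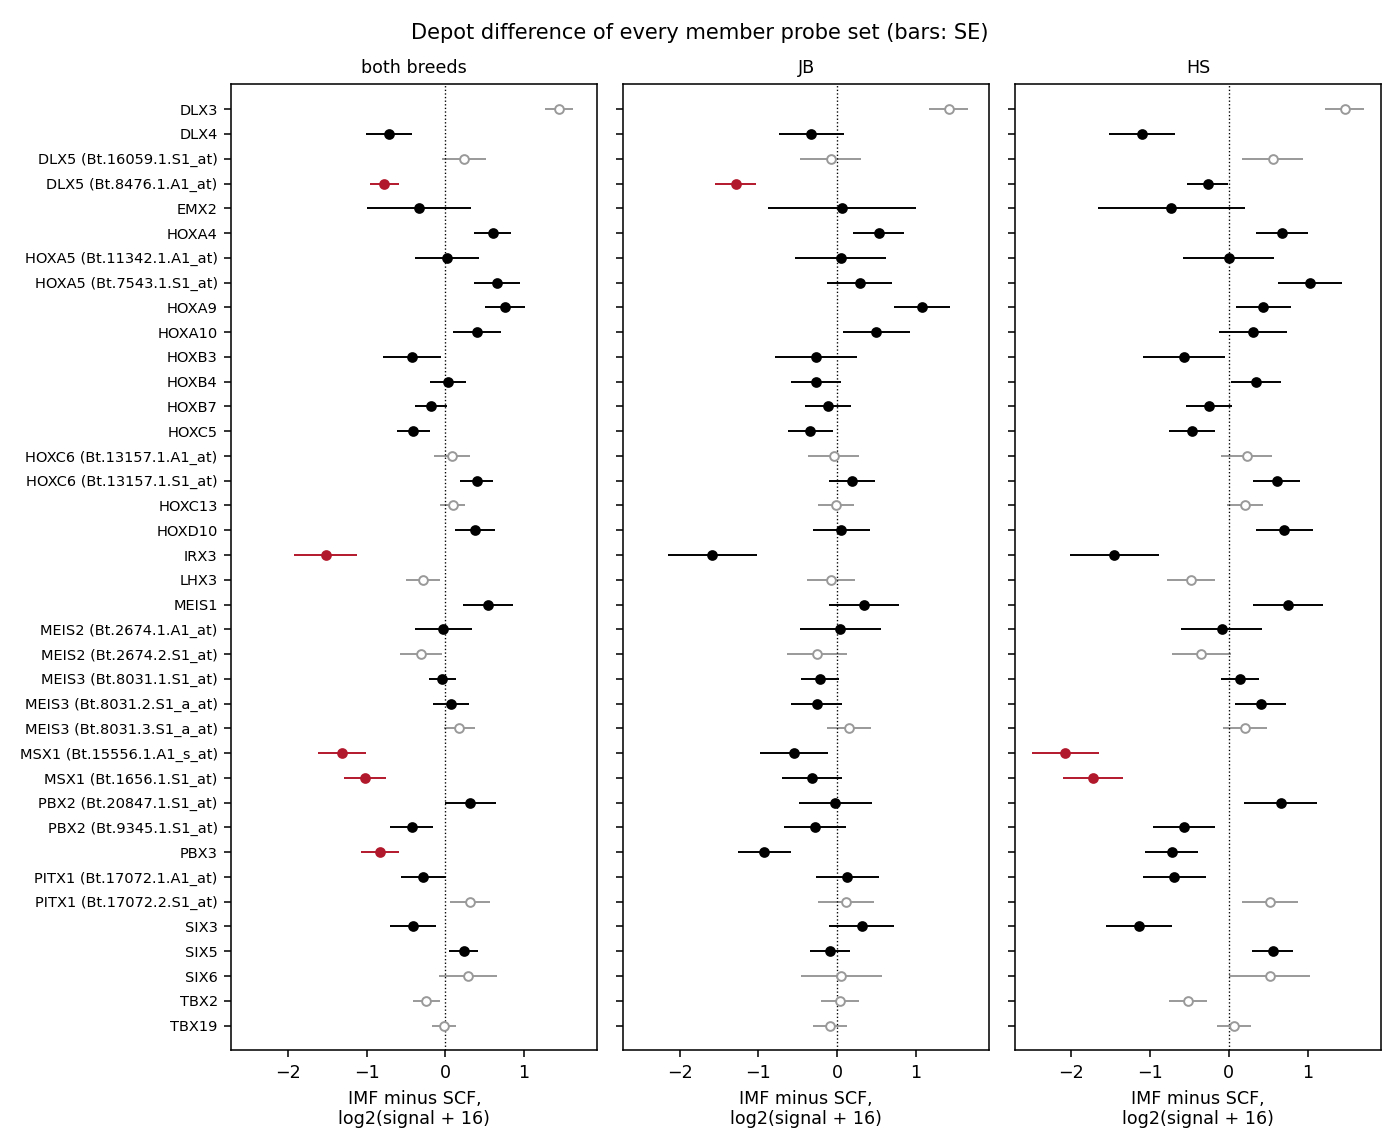
Difference IMF minus SCF of log2(signal + 16) with its SE for the 38 member probe sets, in panels for both breeds, JB and HS. Filled red points were called and open grey points were dim; over both breeds the 5 called members lie left of 0 and the dim DLX3 lies at 1.44.

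Markers of other cell types moved with the depot as well. Of the 13 muscle fibre markers tested 11 were called higher in IMF, as were 7 of 8 smooth muscle and pericyte markers. The smooth muscle and pericyte sum was 15834 to 67737 in IMF and 2425 to 6285 in SCF. That list includes DES, which was also listed among the myogenic factors, so the sum is not specific to smooth muscle. The muscle marker TNNT1 was at 0 in at least 1 SCF sample. All 8 macrophage markers tested were called lower in IMF, with sums of 1707 to 5203 against 9146 to 27549. The 11 stromal progenitor markers, 3 of them called lower, summed to 16656 to 32969.6 in IMF and 33529.6 to 60329 in SCF, without overlap. Of these 11, 2 were higher in IMF by value. Schwann cell markers, 2 of 5 called lower, summed to 1489 to 5678 in IMF and 6404 to 13204 in SCF. By value 2 of these 5 were higher in IMF, and the median difference was -0.24. Keratinocyte markers summed to 494 to 1100.2 in IMF and 1081 to 1666 in SCF, lymphocyte markers to 361 to 792 and 740.2 to 2329. In each list 2 of 5 tested were called lower, while 2 keratinocyte markers and 1 lymphocyte marker were higher in IMF by value. Endothelial marker sums overlapped, at 5181 to 12579 in IMF and 8366 to 14337 in SCF. Among SCF samples HS SCF 5 had the most muscle marker signal, at 20508, and the lowest DLX3 signal, at 4.31. Among IMF samples HS IMF 2 had the least muscle marker signal, at 58992, and also the lowest DLX3 signal, at 30.1. The other IMF samples did not keep such an order. JB IMF 2 had the next lowest muscle marker signal, 87505, with DLX3 at 50.7, and JB IMF 3 had 123830 with DLX3 at 35.1. The part of these cell types in the differences of MSX1, DLX5, IRX3, PBX3 and DLX3 was not tested.

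The 13 HOX probe sets stood for 11 genes: 4 of the A cluster, 3 of B, 3 of C and 1 of D. Of the 11 tested, 8 were positive in value (IMF minus SCF) and 3 negative, with a median of 0.38. On values as deposited 6 were positive and 5 negative, with a median of 0.22. Outside HOX, 12 of the 16 tested probe sets were negative and the median was -0.37. These signs describe the values, since no HOX probe set passed the test.

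The A cluster held the largest HOX differences between depots. HOXA9, a factor of the posterior body axis and of blood stem cells, read 901, 722 and 1224 in JB IMF and 584, 278 and 531 in JB SCF. In HS it read 755, 563 and 208 in IMF and 517, 343 and 411 in SCF. In JB the sides did not overlap, while in HS the lowest value of all came from HS IMF 3. The difference was 0.76 ± 0.25 over both breeds (limma adjusted p 0.0717), 1.08 ± 0.35 in JB (0.16) and 0.44 ± 0.35 in HS (0.478). Without HS IMF 3 the difference over both breeds was 0.89 and was called (limma adjusted p 0.038).

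HOXA4, a factor of the cervical and thoracic region, read 112, 76.2 and 128 in JB IMF and 140.4, 94.3 and 66.1 in HS IMF. In SCF it read 101, 83.3 and 33.6 in JB and 50, 91 and 58.5 in HS. After normalization all 6 IMF samples lay above the SCF median, and the difference was 0.60 ± 0.23 (limma adjusted p 0.118). It was 0.53 ± 0.33 in JB (limma adjusted p 0.556), where it fell to 0.17 without JB SCF 6, and 0.67 ± 0.33 in HS (0.257).

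HOXA5, which patterns the thoracic region and the lung, was read by 2 probe sets that scarcely followed each other (r of 0.133 over 12 samples as a description). The brighter read 493 to 809.8 in JB IMF, 464 to 661 in JB SCF, 479 to 1200.03 in HS IMF and 360.5 to 413 in HS SCF. Its difference was 0.66 ± 0.29 over both breeds (limma adjusted p 0.168) and 1.03 ± 0.41 in HS (0.18), where IMF lay above SCF without overlap. The highest HS IMF value, 1200.03, came from HS IMF 3, while HS IMF 1 and HS IMF 2 read 514.8 and 479.2. The dimmer differed by 0.02 ± 0.41, and its sign turned to -0.05 on values as deposited. HOXA10, of the uterus and the posterior limb, read 23.1 to 69.4 in IMF and 9.81 to 61.1 in SCF and differed by 0.40 ± 0.30 (limma adjusted p 0.428).

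**Figure D3:**
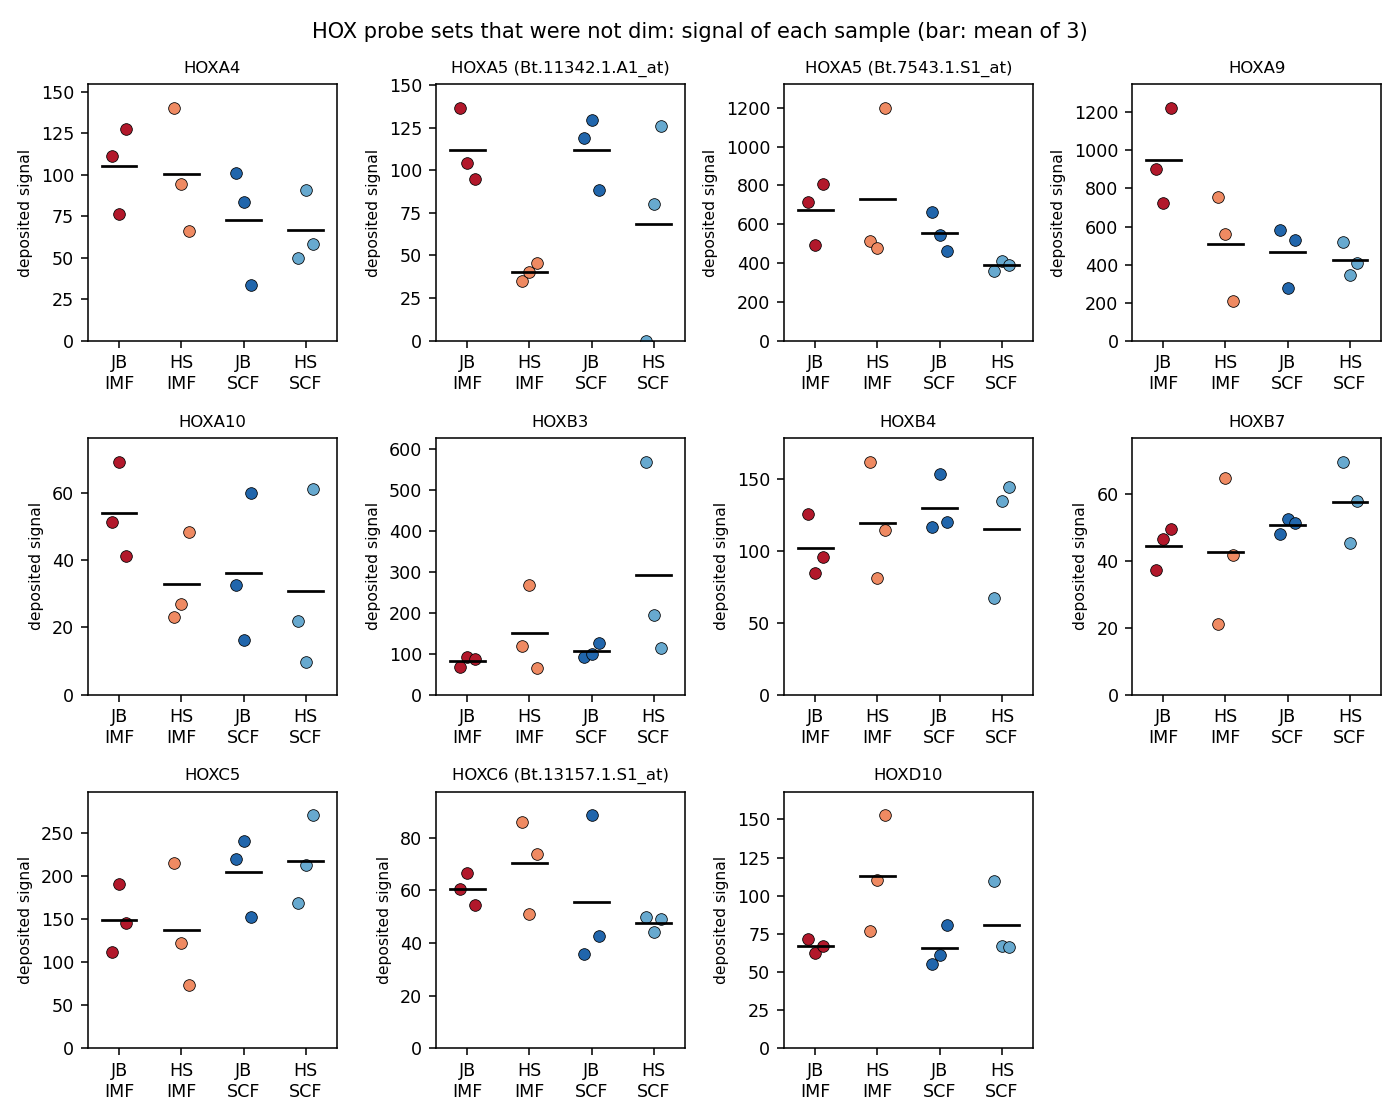
Deposited signal of the 11 tested HOX probe sets in the 12 samples, by group. Points are samples and bars are means of 3. IMF and SCF overlap for every probe set over both breeds. HOXA9 (higher in IMF) lies apart within JB. HOXB3 (lower in IMF) touches there, with 92.03 as the highest JB IMF and 92.18 as the lowest JB SCF value, and it overlaps after normalization. The brighter HOXA5 probe set (higher in IMF) lies apart within HS. HOXC6 (higher in IMF) does so narrowly, with 50.96 as the lowest HS IMF and 49.99 as the highest HS SCF value. HOXB3 stands at 569 in HS SCF 4.

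In the B cluster, HOXB3, of the hindbrain and neck, read 66.4, 92 and 87.9 in JB IMF and 92.2, 99.3 and 126 in JB SCF. In HS it read 118, 268 and 63.9 in IMF and 569, 193 and 113 in SCF, so that HS IMF 2 and HS SCF 4 stood high. The depot difference was -0.42 ± 0.37 (limma adjusted p 0.5). HOXB4, an anterior HOX gene known for its action in blood stem cells, differed by 0.04 ± 0.22 and HOXB7 by -0.18 ± 0.21. HOXB4 turned negative on values as deposited.

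The C cluster gave opposite signs for neighbouring genes. HOXC5 read 112 to 191 in JB IMF, 153 to 241 in JB SCF, 73.6 to 215 in HS IMF and 169 to 271 in HS SCF, and its difference was -0.40 ± 0.21 (limma adjusted p 0.231). HOXC6, its neighbour, was read by its tested probe set at 51 to 86.1 in IMF and 35.8 to 88.5 in SCF, with a difference of 0.40 ± 0.21 (limma adjusted p 0.246). Neither passed, and the dim second probe set of HOXC6 stayed between 0.01 and 17.8. HOXC13, a gene of hair and nails, was dim in every sample, at 0 to 11.8. HOXD10, the one D cluster gene, read 62.5 to 153 in IMF and 55.4 to 109 in SCF, with a difference of 0.38 ± 0.26 (limma adjusted p 0.372).

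Of the other TALE factors, none besides PBX3 was called between the depots. MEIS1 read 39.8 to 122 in IMF and 31.3 to 52.8 in SCF and differed by 0.54 ± 0.32 (limma adjusted p 0.296), with its highest value in HS IMF 3. MEIS2 read 378, 712 and 418 in JB IMF, 372, 539 and 542 in JB SCF, 299.7, 710.4 and 485 in HS IMF and 1348, 504 and 375 in HS SCF. Its difference was -0.02 ± 0.36, and HS SCF 4 stood above all other samples. MEIS3 differed by -0.04 ± 0.17 and 0.07 ± 0.23 in its tested probe sets, which ran together (r of 0.807 as a description), and the second turned negative on values as deposited. PBX2 was read by 2 probe sets of opposite behaviour (r of -0.475), with differences of 0.32 ± 0.33 and -0.43 ± 0.28. The level of PBX2 between depots therefore depended on the probe set, and neither passed.

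Among the remaining families, SIX3, a factor of the forebrain and eye, read 84.5, 63.4 and 29.3 in JB IMF and 24.4, 0.04 and 21.1 in HS IMF. In SCF it read 57.4, 23.6 and 52 in JB and 77.2, 35.6 and 49.5 in HS. The HS IMF samples were all below the HS SCF samples, with a difference of -1.14 ± 0.41 (limma adjusted p 0.145), against 0.31 ± 0.41 in JB (0.881). The HS IMF signals were below the dim limit, and the HS difference was -2.24 with a pseudocount of 1 and -0.73 without HS IMF 2. SIX5, a sine oculis factor expressed in many tissues, read 125 to 222 in IMF and 117 to 202 in SCF and differed by 0.23 ± 0.18 (limma adjusted p 0.449). EMX2, of the brain and urogenital tract, had the widest spread: 3.27, 77.8 and 433 in HS IMF and 59.4, 108 and 456 in HS SCF, against 70.8 to 150.1 over the JB samples. Its difference of -0.33 had an SE of 0.66.

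PITX1, a determinant of hindlimb identity, was read by a tested probe set at 47.3 to 76.6 in 11 samples and at 5.21 in HS IMF 3. Its dim second probe set was highest in that same sample, at 64.8, and the probe sets ran in opposite directions (r of -0.798 over 12 samples as a description). The tested one differed between depots by -0.28 ± 0.28 (limma adjusted p 0.568). TBX2, a T-box repressor of limb and heart, was dim: 25.1, 18.7 and 22.8 in JB IMF, 10.8, 6.55 and 9.74 in HS IMF, and 11.6 to 29 in SCF. TBX19 and LHX3, both known from the pituitary, and SIX6, from the eye, were dim at 0 to 7.66, 0.05 to 31 and 0.01 to 64.7.

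Fewer members were called within single breeds than over both. In JB 1 of 27 members was called (3.7%), DLX5, against 3.07% of all probe sets tested and 0.916% called lower. The JB IMF signals of DLX5 all lay below the dim limit, and it entered the test through the other groups. In HS 2 of 27 were called (7.41%), both probe sets of MSX1, against 3.32% and 1.52% called lower. Members whose IMF and SCF samples did not overlap numbered 1 of 27 higher in IMF and 4 of 27 lower in JB, against 14.1% and 16.2% of all probe sets. In HS they numbered 3 higher and 4 lower, against 7.79% and 12.7%. The JB count fell to 0 without JB IMF 1 or 3 or any 1 JB SCF sample. The HS count fell to 1 without any 1 JB SCF sample, and to 0 when HS SCF 4, HS SCF 6 or HS IMF 3 was left out. With 1 sample left out, the calls over all probe sets tested ranged from 227 to 715 in JB, beside 516 with all samples. In HS they ranged from 192 to 1114, beside 558.

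The breed comparison asked, within each depot, which genes differed between JB and HS. In IMF none of the 27 tested members was called, against 0.0238% of all probe sets tested, and 7 had an unadjusted p below 0.05 in the limma fit, against 10.2% of all. The samples of the breeds did not overlap for 3 members higher in JB, against 7.31% of all probe sets, and for 5 lower in JB, against 6.50%. The median difference of the members, JB minus HS, was -0.11, and over all probe sets it was 0.10 after quantile normalization and 0.38 as deposited. On values as deposited the member median was 0.11, with 16 positive in place of 11.

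DLX5 had the smallest p among the members for breed in IMF. Its JB samples at 4.15 to 16.3 lay below the HS samples at 37.3 to 56, a difference of -1.43 ± 0.26 (limma adjusted p 0.399). That size too depends on the pseudocount and was -2.47 with a pseudocount of 1. DLX4 lay the other way, at 15.4 to 119 in JB and 8.62 to 19.2 in HS, with an overlap through JB IMF 3. Its difference was 1.23 ± 0.41 (limma adjusted p 0.485). The HS signals lay below the dim limit, and over the other settings tried the DLX4 difference reached 1.84. SIX3 read 29.3 to 84.5 in JB and 0.04 to 24.4 in HS, without overlap, and differed by 1.21 ± 0.41 (limma adjusted p 0.485). With a pseudocount of 1 the SIX3 difference was 2.32. None of these passed.

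The MEIS3 probe set with the smaller p read 110.4, 113 and 115 in JB IMF and 132, 219 and 189 in HS IMF, a difference of -0.93 ± 0.32 (limma adjusted p 0.485). The other bright MEIS3 probe set differed by -0.43 ± 0.24 (limma adjusted p 0.525) and overlapped between the breeds. The dimmer MSX1 probe set differed between JB IMF and HS IMF by 0.99 ± 0.38 (limma adjusted p 0.485), at 104 to 249 against 35.2 to 95.2. HOXD10, at 62.5 to 71.8 in JB and 76.6 to 153 in HS, was the HOX member with the smallest p here, with a difference of -0.91 ± 0.36 (limma adjusted p 0.485). SIX5 differed by -0.64 ± 0.26 (limma adjusted p 0.485), without overlap. The dimmer HOXA5 probe set was separated too, at 95 to 137 in JB and 35.3 to 45.4 in HS, with a difference of 1.02 ± 0.58 (limma adjusted p 0.525), and HOXB3 was separated after normalization with -0.80 ± 0.52 (0.568). The dim TBX2 was also separated, at 18.7 to 25.1 in JB and 6.55 to 10.8 in HS, and differed by 0.56 ± 0.24 in the fit without the filter (limma adjusted p 0.485).

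In SCF none of the 27 members was called for breed, against 0.00595% of all probe sets tested, and none had an unadjusted p below 0.05 in limma, against 3.56% of all. The breeds did not overlap for 2 members higher in JB, against 5.81% of all, and for 1 lower, against 6.20%. These were the brighter HOXA5 probe set, with a difference of 0.40 ± 0.41, PBX3, with 0.38 ± 0.34, and DLX5, with -0.41 ± 0.26, each with a limma adjusted p of 1. Without HS SCF 5 the PBX3 difference was 0.11. HOXB3 had the smallest p, with a difference of -1.10 ± 0.52 (limma adjusted p 1). Without HS SCF 4, where HOXB3 read 569, that difference came to -0.45.

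The dimmer HOXA5 probe set differed by 0.97 ± 0.58 in SCF, through a signal of 0.02 in HS SCF 4 beside 80.2 and 126 in the other HS samples, and the difference without that sample was 0.07. MSX1 in SCF went in the opposite direction to IMF by value, with -0.65 ± 0.43 and -0.42 ± 0.38 for its probe sets (limma adjusted p 1 for both). IRX3 differed little between the breeds in value, by 0.02 ± 0.57 in SCF and -0.11 ± 0.57 in IMF, where the sign turned on values as deposited.

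**Figure D4:**
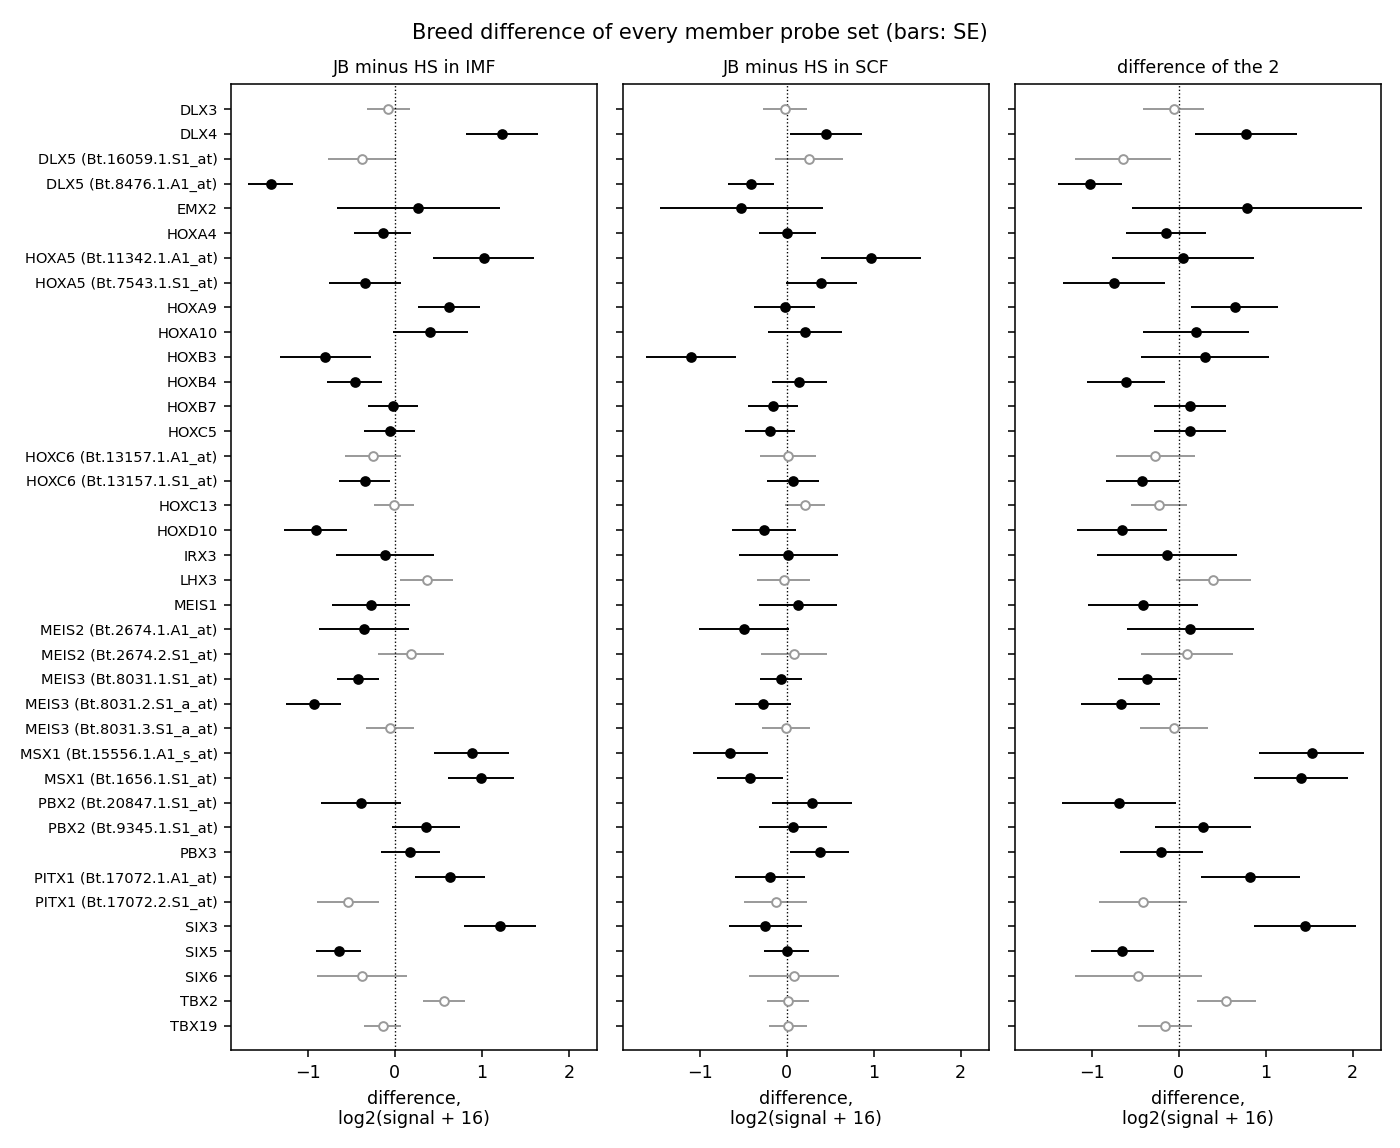
Difference JB minus HS of log2(signal + 16) with its SE for the 38 member probe sets, in panels for IMF, SCF and the interaction (IMF minus SCF). Open grey points were dim, and no member was called; DLX5 lies at -1.43 in IMF and the MSX1 probe sets at 1.53 and 1.41 in the interaction.

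The interaction, in which the breed difference of SCF is subtracted from that of IMF, was called for 0 of the 27 members and for 0% of all probe sets tested. In limma 4 members had an unadjusted p below 0.05, against 2.14% of all. They were DLX5, with -1.02 ± 0.37, both MSX1 probe sets and SIX3, with 1.46 ± 0.59. SIX5 followed with -0.64 ± 0.37, and all 5 had a limma adjusted p of 0.99. The depot comparisons within breeds share samples with the breed comparisons and with the interaction, so these values are not independent of each other.

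As a description of likeness over the 12 samples, with depot and breed shared by all points, the tested members of other genes most like the brighter MSX1 probe set were SIX3 (r of 0.636), HOXC5 (0.542) and PBX3 (0.443). The other called members followed it less, with r of 0.311 for IRX3 and 0.215 for DLX5. HOXA4 had the most negative value, -0.54.

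The genes around these families in the same pathways were described from lists, by their brightest probe sets. None was called in 2 tested TALE cofactors outside the members, 4 other patterning homeobox genes and 10 other mesenchymal patterning factors between the depots. Against 11.0% of all probe sets tested, 1 of 16 Polycomb genes was called, and these genes are known for keeping HOX clusters silent. EED, a core subunit of the H3K27 methyltransferase complex, was lower in IMF with a difference of -0.76 ± 0.21 (limma adjusted p 0.0409). Of 8 trithorax genes and H3K27 demethylases 1 was called, also near that share: the histone methyltransferase ASH1L was higher in IMF by 0.92 ± 0.24 (limma adjusted p 0.0301). The EED call held without 4 of the 12 samples left out in turn (lost without JB IMF 1 or 3, JB SCF 4 or 5, HS IMF 2 or 3, or HS SCF 5 or 6, adjusted p 0.0526 to 0.115). That of ASH1L held without 7 of 12 (lost without JB IMF 3, any 1 JB SCF sample or HS SCF 6, adjusted p 0.0617 to 0.088). No member of any of these lists was called between the breeds.

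Retinoic acid is a known inducer of HOX genes, and 4 of its 17 tested pathway genes were called between the depots, against 11.0% of all probe sets tested. TGM2, a transglutaminase induced by retinoic acid, was higher in IMF by 2.81 ± 0.47 (limma adjusted p 0.00295). Lower in IMF were ALDH1A1, which makes retinoic acid, with -0.83 ± 0.17 (limma adjusted p 0.00808), RARRES1, a gene induced by retinoids, with -1.59 ± 0.35 (0.0138), and the receptor RXRA with -0.81 ± 0.19 (0.0205). The RXRA call was lost without JB IMF 1, JB IMF 3 or JB SCF 5 (adjusted p 0.0566 to 0.0646), and the other 3 held without each sample in turn. The median over the 17 was -0.20, beside -0.06 over all probe sets tested.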

How the data were processed

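Biotin-labelled cRNA from total RNA was hybridised to Affymetrix bovine arrays, per the labels' protocols. Each of the 12 arrays had a deposited intensity, on a linear scale, for 24128 probe sets. GCOS 1.1.1 and Affymetrix Expression Console 1.1 were used, per the submitters' processing notes; how signals were summarized and scaled is not given in the sources consulted here. The deposited intensities were turned into log2(signal + 16) and quantile normalized. The 112 control probe sets and the 30% of the other 24016 with the lowest mean were left out, which left 16811.

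Linear models with 4 group means were fitted with limma 3.58.1 (lmFit, eBayes) in R 4.3.3 over all 12 samples, with Benjamini-Hochberg adjustment over all probe sets tested in a comparison, and were tested on simulated data. Dim members were taken from the same fit without the filter. Of 13318 probe sets annotated with 1 symbol and an Entrez identifier, 13283 matched RefSeq (assembly ARS-UCD2.0), which left the 38 member symbols as they were. Labels were parsed by jsonlite 2.0.0. Plots used Python 3.11.15 with matplotlib 3.10.9, pandas 2.3.3 and numpy 2.4.6.

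Members named with sample values were those called in any comparison, the 5 with the smallest p in each comparison and the brightest probe set of each family; DLX3 was added after its values were seen, and other members are given to complete their families. For pathway lists, up to 4 genes with the smallest p were named where a list had a called gene. The members, lists and rules were chosen with earlier results of these data known. Other settings tried were the values as deposited, median centring, a pseudocount of 1, no filter or 50% left out as dim, trended and robust variance, weights per array, a fit limited to the groups compared, each sample left out in turn, and the replicate number as a block.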

Additional observations from a re-analysis of the deposited data

How the results depend on the processing

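The 33 named differences were recomputed under up to 23 other settings each, which gave 710 values. Of these, 641 kept their direction and their side of the threshold, 63 fell below it, 6 rose past it and 0 changed direction. The named differences were picked by small p in the same data, or after seeing the values for DLX3, so a kept direction was likely from the start. Outside them some signs turned with the scaling, as for HOXB4 and the dimmer HOXA5 probe set between the depots. Differences not called at the start counted as kept when they stayed uncalled, so only called ones could fall. Over both breeds the call was kept in 15 of 21 settings for DLX5, 13 of 22 for IRX3 and 12 of 22 for PBX3. For MSX1 it was kept in 20 of 22 for the brighter probe set and 12 of 22 for the dimmer. Within breeds it was kept in 15 of 21 for DLX5 in JB, and in 16 and 12 of 22 for MSX1 in HS. The number of members called between depots over both breeds was 5 and ranged from 0 to 5 when each sample was left out in turn, with 0 without JB IMF 1. It was 1 without JB SCF 6 and HS SCF 5 together, a pair chosen after seeing the data. Over all 16811 probe sets tested 799 were called without that pair and 1000 without JB IMF 1, against 1848 with all samples. The count in JB, 1, ranged from 0 to 1 with a sample left out. It was 2 with no filter, 0 with 50% left out as dim and 5 with array weights. It was 3 in a fit limited to the groups compared and 0 without JB SCF 6 and HS SCF 5. Over all probe sets 538 of 24016 were called with no filter, 443 of 12008 with 50% left out and 516 of 16811 in the main fit. Array weights gave 4340 of 16811, the limited fit 1038 and leaving out the pair 220. The count in HS, 2, ranged from 0 to 2 with a sample left out. It was 0 with array weights and 0 in a fit limited to the groups compared. It was also 0 without HS IMF 3 and HS SCF 4, a second pair chosen after seeing the data. Over all probe sets tested 558 were called in HS in the main fit, 184 with array weights, 158 in the limited fit and 365 without that pair. With 50% left out as dim DLX5 was not tested, and the causes of the other changes were not tested. The breed and interaction counts stayed at 0 with each sample left out. With the replicate number as a block the breed counts were 0 in both depots. Same-numbered JB and HS samples of a depot correlated in their deviations from the group means at -0.278 to 0.117. With 3 samples in a group these values cannot show whether a number marks a shared batch. Pairing of IMF with SCF samples was not examined. The dim signal of DLX3, near the level at which signals are small against the pseudocount, limits how well its fold is known: it was 2.63 on the log2 scale with a pseudocount of 1.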

Other observations

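HS IMF 3 was the highest of the 12 samples for 14 of the 38 member probe sets. Among the 27 tested it was highest for 10 (37.0%), against 21.8% of all probe sets tested. Several dim members stood out in this sample alone: SIX6 read 64.7 there and at most 12.7 elsewhere, and the dim DLX5 probe set read 34.5 there and at most 11.8 elsewhere. It was the lowest sample for 4 of the 27 tested, against 29.9% of all probe sets tested, and these included EMX2 at 3.27 and PITX1 at 5.21. Its median signal of 58.84 and its mean r of 0.805 with its own group were the lowest of the 12 samples. The part of the array in these values was not tested.

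HS SCF 4 was highest for 7 of the 38. Among the 27 tested it was highest for 4 (14.8%), near the 11.6% of all probe sets tested. HOXB3 read 569 there and at most 268 elsewhere, MEIS2 read 1348 there and at most 712 elsewhere, and EMX2 read 456 there and 433 in HS IMF 2. The same HS IMF 2 held the highest HOXB3 and IRX3 signals of the IMF samples. MEIS2 did not single out that sample, since JB IMF 2 read 712 and HS IMF 2 read 710.4. Groups of 3 do not allow a test of one sample against the others.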
